A study of Mus musculus with 79 samples.

Results

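Affymetrix Mouse Gene 1.0 ST arrays measured quadriceps RNA of male mice of the BXD family, and its strains fall into a pair of well separated classes by the signal of a single gene, Fbxw11. The 37 strains with an array on each diet were split at a mean signal of 10 units, which gave 22 high Fbxw11 strains and 15 low Fbxw11 strains of 42 strains in the series. The class was chosen by the mean of the chow diet (CD) and high fat diet (HFD) values of the Fbxw11 probeset with the highest mean, and the comparison below asks which of the 22318 other named genes differed between the classes within each diet. The high class comprised C57BL/6J (B6) and 21 BXD strains, and the low class comprised DBA/2J (D2) and 14 BXD strains. BXD strains are inbred mosaics of B6 and D2, in which each stretch of a chromosome descends from one parent or the other. The labels name no engineered allele in any strain. CD was Harlan 2018 and HFD was Harlan 06414, begun at 8 weeks of age, and all animals were fasted overnight and sacrificed at 29 weeks. An array held pooled RNA of about 5 animals of 1 strain on 1 diet, so the strain is the unit of replication, variation among animals within a strain cannot be seen, and p-values measure the spread between strains. Arrays were run in 2 batches, and batch was a term of each fit: on CD the high class had 10 arrays in batch 1 and 12 in batch 2 against 5 and 10 for the low class, and on HFD 12 and 10 against 5 and 10.

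Fbxw11 encodes an F-box protein with WD repeats, also known as beta-TrCP2. It is the substrate receptor of an SCF ubiquitin ligase, a complex in which Skp1 links the F-box protein to the cullin Cul1 and the RING protein Rbx1. The ligase recognises proteins that carry a phosphorylated degron and marks them for destruction by the proteasome. Among its best known substrates are beta-catenin, the IkappaB inhibitors of NF-kappaB, the clock proteins Per1 and Per2 and the mTOR inhibitor Deptor. Btrc, or beta-TrCP1, is its close relative and shares most of these substrates.

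The values are expression scores that every array shares in location and spread, namely an average of 8.0 with SD 2.0 across 35556 probesets. They were treated as logarithms, but neither that nor a base is given in the sources used here. Differences are therefore reported in units and not as folds. All differences below are high minus low Fbxw11 strains, fitted with limma and adjusted by Benjamini-Hochberg over 35553 probesets. A gene is called at an adjusted p below 0.05, and it is represented by whichever of its probesets was brightest on average. Genotypes were not used here, so the classes are classes of signal, and whether the strains of a class share alleles was not tested.

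Gpr75 and Ccdc85a had the largest differences called on CD or on HFD. Their promoter windows and that of Fbxw11, which defines the split, are shown first because the results turn on these genes. Each is the RefSeq sequence of assembly GRCm38.p6 from 250 bases before to 50 bases after the annotated start, and the assembly is that of C57BL/6J, a high Fbxw11 strain. Fbxw11 lies on the plus strand (chr11:32642305-32642604), Gpr75 on the plus strand (chr11:30885108-30885407) and Ccdc85a on the minus strand (chr11:28584275-28584574). Capitals mark the letters CCAAT or their reverse complement.
Fbxw11: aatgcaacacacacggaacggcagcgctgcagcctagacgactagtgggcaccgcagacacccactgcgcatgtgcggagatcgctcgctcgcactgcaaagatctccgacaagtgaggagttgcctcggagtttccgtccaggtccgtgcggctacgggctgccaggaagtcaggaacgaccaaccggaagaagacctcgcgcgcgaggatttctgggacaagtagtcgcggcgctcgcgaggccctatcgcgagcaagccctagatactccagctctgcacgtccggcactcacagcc
Gpr75: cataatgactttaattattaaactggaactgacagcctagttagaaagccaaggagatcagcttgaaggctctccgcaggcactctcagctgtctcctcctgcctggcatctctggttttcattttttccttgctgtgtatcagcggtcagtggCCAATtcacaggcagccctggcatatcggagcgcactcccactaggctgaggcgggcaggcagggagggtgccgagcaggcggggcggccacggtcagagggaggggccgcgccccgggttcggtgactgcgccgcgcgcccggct
Ccdc85a: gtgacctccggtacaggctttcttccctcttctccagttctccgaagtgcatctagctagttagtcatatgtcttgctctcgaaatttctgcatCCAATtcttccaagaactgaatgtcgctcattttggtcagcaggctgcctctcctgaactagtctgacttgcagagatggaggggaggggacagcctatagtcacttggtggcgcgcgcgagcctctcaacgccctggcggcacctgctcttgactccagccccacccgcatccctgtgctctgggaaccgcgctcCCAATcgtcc
Both strands were searched for the letters CCAAT, which occurred 0 times in the window of Fbxw11, 1 time in that of Gpr75 and 2 times in that of Ccdc85a. The letters TATAAA, searched in the same way, occurred 0 times in each. Of 32851 windows of 300 bases in the same table, 37.4% held the first of these motifs and 13.6% held the second. The Fbxw11 window contained 31 CG dinucleotides, more than 89.4% of these windows did, against 18 for Gpr75 and 14 for Ccdc85a. A match is a description of these letters and not of a bound factor.

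Fbxw11 signal fell into 2 ranges with nothing between them. The high strains ran from 10.96 through a median of 11.59 to 12.08 units as the mean of both diets, and the low strains from 7.85 through 8.40 to 8.90 units. The strains next to the threshold were BXD43, at 11.24 on CD and 10.68 on HFD, and BXD103, at 8.85 on CD and 8.95 on HFD. The class means were 11.56 ± 0.30 (SD, n = 22) and 8.40 ± 0.30 units (SD, n = 15), and since these values chose the classes they carry no test. The parents lay in opposite classes, B6 at 11.58 on CD and 11 on HFD, and D2 at 8.38 and 7.95. Of the 5 strains with a CD array alone, which entered no main comparison, BXD95, BXD92a and BXD50 lay at 11.74, 11.97 and 12.19 units and BXD60 and BXD101 at 8.11 and 8.53.

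**Figure D1:**
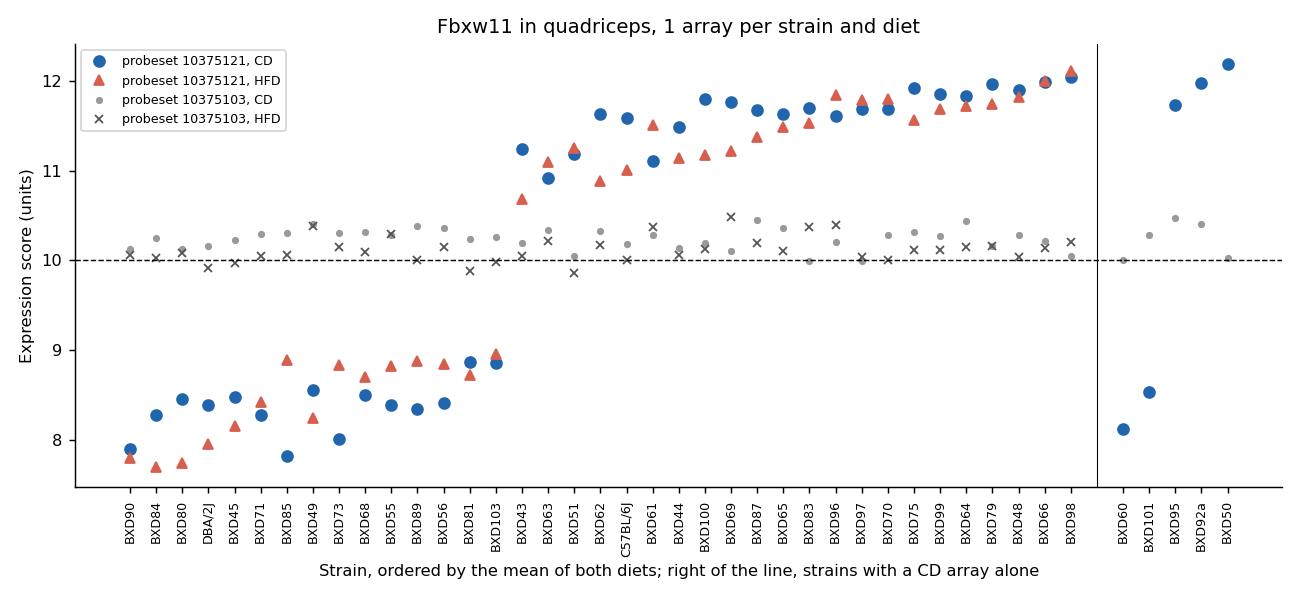
Expression scores (y axis, units) of 2 Fbxw11 probesets in each strain (x axis), with filled circles for CD and triangles for HFD of probeset 10375121, which made the split, and small dots and crosses for probeset 10375103; the dashed line is the threshold of 10. Probeset 10375121 leaves a gap from 8.95 to 10.68 units between the classes, while probeset 10375103 stays between 9.86 and 10.49 units in both.

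The Fbxw11 signal was also compared between diets, as a description. HFD minus CD averaged -0.17 ± 0.31 units (SD, n = 22 strains) in the high class, where 8 strains were higher on HFD, and 0.08 ± 0.52 units (SD, n = 15 strains) in the low class, where 8 were. The widest single change was a rise of 1.07 units in BXD85, from 7.82 on CD to 8.89 on HFD, which left it within the low range.

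The 3 Fbxw11 probesets did not tell one story. Probeset 10375121, used for the split, and probeset 10375123 followed each other closely within each class, with Pearson's r of 0.996 over 44 arrays of the high class and 0.984 over 30 arrays of the low class, where arrays of 1 strain share their genotype. On CD probeset 10375123 ran from 10.8 through a median of 11.54 to 11.9 units in the high strains and from 7.74 through 8.28 to 8.73 in the low strains. Probeset 10375103 showed no such division: on CD it ran from 9.99 through 10.21 to 10.45 in the high strains and from 10.12 through 10.28 to 10.4 in the low strains. On HFD its class means were 10.15 and 10.07 units, again with overlapping ranges. Its r with probeset 10375121 was 0.10 in the high class and 0.008 in the low class. The table gives all 3 probesets the same symbol and no position or sequence, so which part of the transcript each one reads is not known here. Whether sequence differences between B6 and D2 under the probes change the signal of some of the probesets was not tested, so the 2 classes are classes of probeset signal and cannot be read as classes of transcript level. Of the 12 probesets with the nearest numbers whose gene could be placed, 11 belong to genes of chromosome 11, the chromosome of Fbxw11.

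Few genes other than Fbxw11 were called between the classes. On CD 9 of 22318 genes were called, or 0.0403%, 4 higher and 5 lower in the high strains, and 1853 genes, or 8.3%, had an unadjusted p below 0.05. On HFD 5 genes were called, or 0.0224%, 4 higher and 1 lower, and 2713, or 12.2%, had an unadjusted p below 0.05. After a second quantile normalization the HFD count was 8, with 4 in each direction. Gpr75, Ccdc85a, Acyp2 and Erlec1 were called in both diets in the same direction, 4 genes or 0.0179% of those tested, which is 44.4% of the CD list and 80.0% of the HFD list. All 4 lie on chromosome 11, on the same side of Fbxw11. Scores of the classes did not overlap for 1 gene on CD and 1 on HFD, or 0.00448% each, and in both diets that gene was Gpr75.

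**Figure D2:**
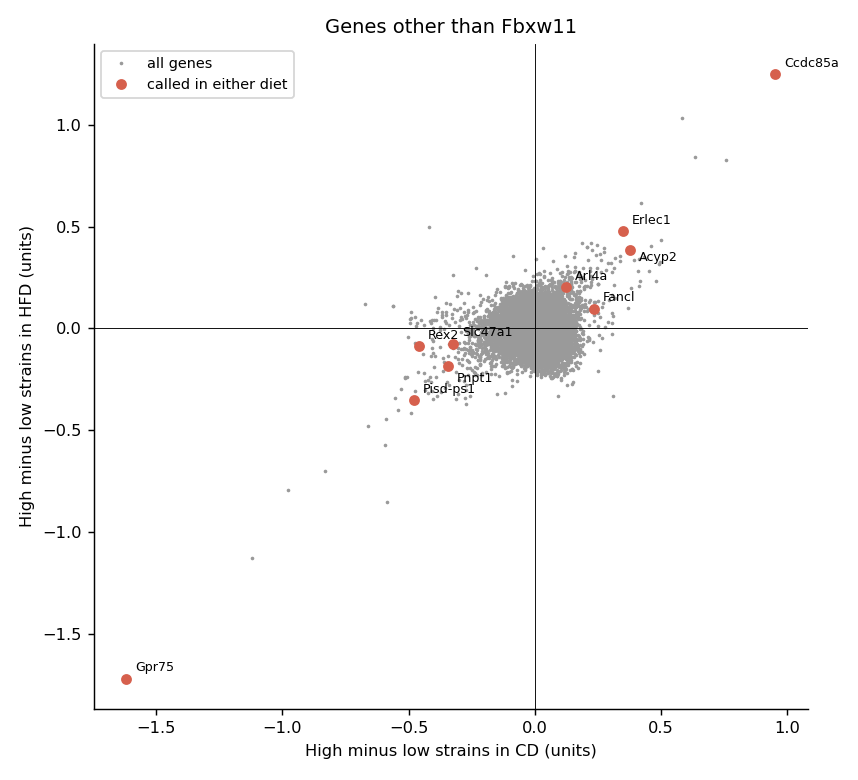
High minus low Fbxw11 strains on CD (x axis, units) against HFD (y axis, units) for 22318 genes, with the 10 genes called in either diet in red. Gpr75, at -1.62 and -1.72 units, and Ccdc85a, at 0.95 and 1.25 units, lie farthest out among the called genes.

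Gpr75 encodes a G protein-coupled receptor, and it ran opposite to Fbxw11. On CD its scores were 8.16 at the lowest, 8.47 at the median and 8.93 at the highest among high strains, against 9.54, 10 and 10.6 among low strains. On HFD they were 7.64, 8.29 and 8.69 against 9.4, 9.96 and 10.47. Every low strain was thus above every high strain in both diets. The difference was -1.62 ± 0.0686 units on CD (SE, limma, adjusted p = 1.96e-19) and -1.72 ± 0.0754 units on HFD (adjusted p = 5.36e-19). Within batch 1 alone it was -1.69 units on CD and -1.77 on HFD, and within batch 2 alone -1.58 and -1.68, each called. B6 had 8.63 units on CD and D2 had 10.42. The strains that had no HFD array stood the same way on CD: 8.39, 8.41 and 8.47 units in BXD50, BXD92a and BXD95, which had Fbxw11 above 10, and 9.91 and 10.22 in BXD60 and BXD101, which had it below.

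Ccdc85a, which encodes a coiled-coil protein, was the called gene with the largest rise in high strains. On CD the high strains ran from 8.38 through 9.33 to 10.04 units and the low strains from 8.14 through 8.38 to 8.63. On HFD the ranges were 8.29 through 9.52 to 10.02 and 7.97 through 8.29 to 8.55. The classes overlapped in both diets because of BXD44: this high strain, with Fbxw11 at 11.49 on CD and 11.14 on HFD, had Ccdc85a at 8.38 and 8.29 units. It was the only one of 37 strains on the other class's side of the midpoint between class means, and its Gpr75 scores, 8.64 and 8.16, were those of its own class. The Ccdc85a difference was 0.95 ± 0.0903 units on CD (SE, limma, adjusted p = 1.79e-08) and 1.25 ± 0.0891 on HFD (adjusted p = 3.22e-12). With arrays of batch 1 alone it was 0.85 units on CD, which was not called (adjusted p = 0.504), and 1.16 on HFD, which was (adjusted p = 0.0253).

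Erlec1, a lectin of the endoplasmic reticulum that takes part in the disposal of misfolded glycoproteins, was higher in high strains by a smaller step. Its scores on CD ran from 9.57 through 9.80 to 10.15 units in high strains and from 9.25 through 9.48 to 9.62 in low strains, and on HFD from 9.68 through 9.88 to 10.31 and from 9.26 through 9.45 to 9.72. The ranges overlapped near their edges. On CD 4 high strains, BXD43, BXD66, BXD69 and BXD83, and 0 low strains crossed the midpoint between class means. On HFD 1 strain of each class, BXD100 and BXD55, did so. The difference was 0.35 ± 0.0445 units on CD (SE, limma, adjusted p = 1.58e-05) and 0.48 ± 0.0517 on HFD (adjusted p = 3.66e-07). In batch 1 alone the differences of 0.35 and 0.46 units were not called (adjusted p = 0.567 and 0.0719).

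Acyp2 encodes the muscle acylphosphatase and was higher in high strains in both diets. On CD its scores ran from 11.54 through 11.74 to 11.97 units in high strains and from 11.2 through 11.38 to 11.56 in low strains, and on HFD from 11.44 through 11.78 to 11.97 and from 11.03 through 11.41 to 11.61. A single strain of each class, BXD43 and BXD81, crossed the midpoint on CD, and 4 high strains and 1 low strain did so on HFD. The difference was 0.38 ± 0.0378 units on CD (SE, limma, adjusted p = 6.18e-08) and 0.39 ± 0.0553 on HFD (adjusted p = 0.000118). It was 0.43 units in batch 1 alone and 0.34 in batch 2 alone on CD, called only in batch 2, and 0.54 and 0.28 on HFD, called in neither (adjusted p = 0.0719 and 0.253).

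**Figure D3:**
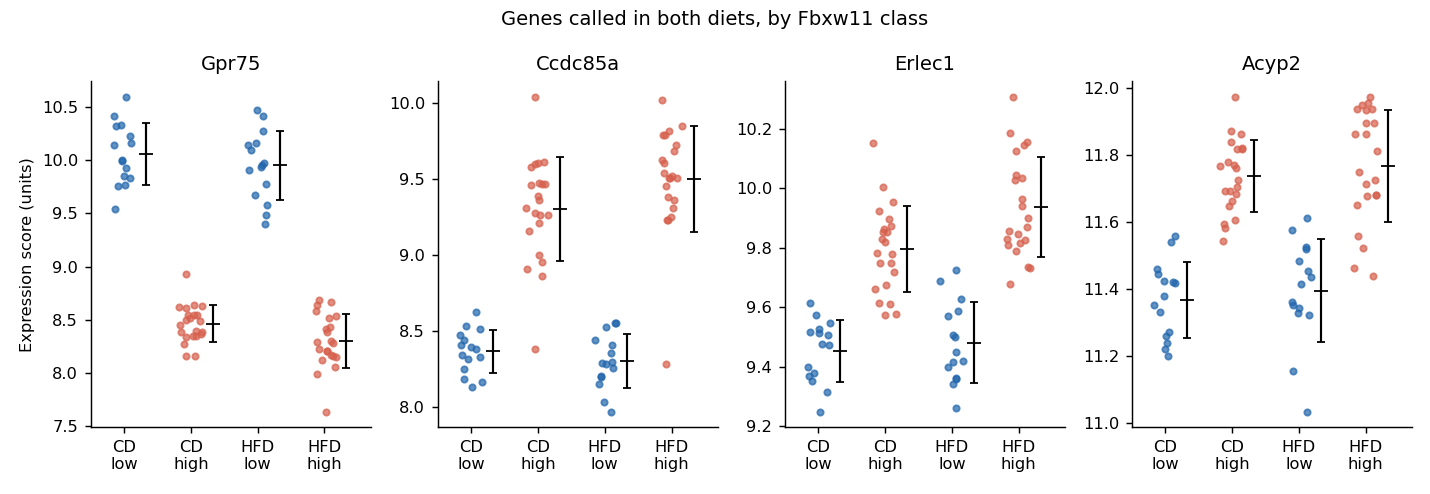
Expression scores (y axis, units) of the 4 genes called in both diets, each point being 1 strain, in low (blue, n = 15) and high (red, n = 22) Fbxw11 strains on CD and HFD, with bars for the mean and SD. Gpr75 shows separate clouds, lowest low strain 9.4 and highest high strain 8.93 units over both diets, and in Ccdc85a 1 high strain, BXD44, lies among the low strains.

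The RefSeq gene models of assembly GRCm38.p6 give an overlap that bears on these values. The span of Erlec1 overlaps those of 2 other protein-coding genes, Psme4 and Gpr75, while Acyp2 and Ccdc85a overlap no other protein-coding gene. Erlec1 and Gpr75 differed in opposite directions, and the probe positions that would tell their signals apart are not in the table used here.

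A further 5 genes were called on CD and not on HFD. Pnpt1, an exoribonuclease that works in mitochondria, ran from 9.17 through 9.33 to 9.66 units in high strains and from 9.54 through 9.70 to 9.93 in low strains on CD. The 2 ranges overlapped only slightly, and 2 high strains, BXD64 and BXD97, crossed the midpoint. The difference was -0.34 ± 0.0431 units on CD (SE, limma, adjusted p = 1.14e-05) and -0.18 ± 0.0541 on HFD (adjusted p = 0.321). Fancl, the ubiquitin ligase subunit of the Fanconi anaemia pathway, differed by 0.23 ± 0.0437 units on CD (adjusted p = 0.015) and by 0.10 ± 0.0567 on HFD (adjusted p = 0.476). Its second probeset was not called, at 0.16 units on CD and 0.22 on HFD, and its span overlaps that of the protein-coding gene Vrk2. Pisd-ps1, a pseudogene of phosphatidylserine decarboxylase, differed by -0.48 ± 0.0941 units on CD (adjusted p = 0.0283) and by -0.35 ± 0.0916 on HFD (adjusted p = 0.235). As a pseudogene it may share probes with its parent gene, and its RefSeq span overlaps that of Sfi1, so its value is uncertain.

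Slc47a1, an exporter of organic cations and drugs, differed by -0.32 ± 0.0598 units on CD (SE, limma, adjusted p = 0.0142) and by -0.07 ± 0.0750 on HFD (adjusted p = 0.696). Its CD difference was -0.46 units in batch 1 alone and -0.24 in batch 2 alone, called in neither (limma, adjusted p = 0.504 and 0.272). Rex2, which lies on chromosome 4, was the only gene called on CD outside chromosome 11. It ran from 7.61 through 7.99 to 8.33 units in high strains and from 8.02 through 8.36 to 8.99 in low strains on CD, a difference of -0.46 ± 0.0793 units (adjusted p = 0.00518). On HFD both classes centred near the same level, with medians of 8.07 and 8.15 units and a difference of -0.08 ± 0.0976 (adjusted p = 0.739). The strains that had no HFD array did not stand by class: BXD60 and BXD101, with Fbxw11 below 10, had Rex2 at 7.58 and 7.69 units on CD, below all 15 low strains, beside 7.58, 7.85 and 8.05 in BXD92a, BXD95 and BXD50. With these 5 strains in the fit 9 genes were called on CD, 7 of them as before, and the calls of Rex2 (-0.38 units, adjusted p = 0.147) and Pisd-ps1 (-0.43 units, adjusted p = 0.0923) were lost. The value of Rex2 is uncertain, since its span overlaps that of another protein-coding gene, Zfp993, and 3 of the 10 placed probesets nearest to it in number belong to chromosome 4. Without both parental strains the adjusted p of Fancl, Pisd-ps1 and Slc47a1 on CD became 0.0671, 0.0671 and 0.0620, so that these calls were lost.

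Arl4a on chromosome 12, which encodes a small GTPase related to the ADP-ribosylation factors, was the 1 gene called on HFD and not on CD. Its scores on HFD ran from 8.09 through 8.34 to 8.59 units in high strains and from 8.01 through 8.14 to 8.32 in low strains, a wide overlap. The difference was 0.20 ± 0.0406 units on HFD (SE, limma, adjusted p = 0.0386) and 0.12 ± 0.0443 on CD (adjusted p = 0.473). The HFD call was lost without both parental strains (adjusted p = 0.0937) and with the first principal component of the arrays as a term (adjusted p = 0.242).

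Mtif2, the mitochondrial translation initiation factor, had 1 probeset called in both diets and another, which represented the gene, called in neither. Probeset 10374880 differed by 0.26 ± 0.0481 units on CD (SE, limma, adjusted p = 0.0142) and by 0.37 ± 0.0465 on HFD (adjusted p = 1.12e-05). Probeset 10338934, which has the higher mean and so represented the gene, differed by -0.00 and -0.18 units (adjusted p = 0.991 and 0.412). Of the 10 placed probesets with the nearest numbers, 10 belong to chromosome 11 for the former and 0 for the latter. A further 10 called probesets had no gene symbol, 1 of them in both diets, and they are not described by gene here.

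The called genes nearest to Fbxw11 lay on one side of it in chromosome 11 gene order. Counting measured genes from Fbxw11, Gpr75 was 23 places before it, Erlec1 24, Acyp2 26, Pnpt1 40, Ccdc85a 45 and Fancl 48. Of the 30 genes placed 21 to 50 before Fbxw11, 6 were called on CD and 4 on HFD, beside 0.0403% and 0.0224% of all genes. Of the 20 genes immediately before Fbxw11 and the 20 immediately after, 0 were called in either diet, and of the 30 genes placed 21 to 50 after, 0, which at those shares is not particular to these places. Pisd-ps1 was the first of the measured genes on the chromosome, 202 places before Fbxw11, and Slc47a1 lay 302 places after it. On each diet 1120 genes lay more than 300 places after Fbxw11, of which 1, Slc47a1, was called on CD and 0 on HFD.

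**Figure D4:**
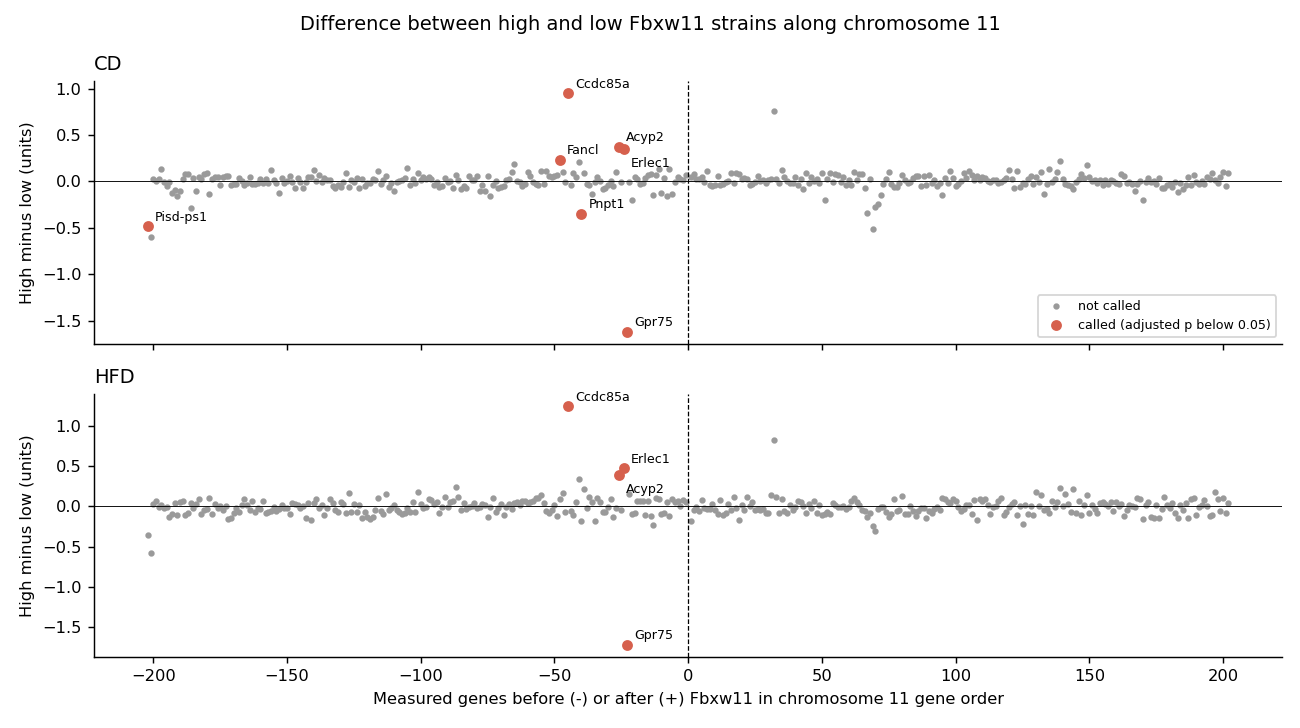
High minus low Fbxw11 strains (y axis, units) on CD (top) and HFD (bottom) for measured chromosome 11 genes within 202 places of Fbxw11 (x axis, places in gene order; dashed line, Fbxw11), with called genes in red. In both diets the called genes between places -48 and -23 rise to 0.95 units or more and fall to -1.62 units or less, while the genes nearest Fbxw11 lie close to 0.

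The nearest neighbours of Fbxw11 held no called gene. The 12 measured genes on either side ranged from -0.16 to 0.14 units on CD, with a median of 0.03, and from -0.18 to 0.11 on HFD, with a median of -0.00, beside all-gene medians of 0.01 and -0.01. None of the 24 was called on either diet by limma, where 4 on CD and 3 on HFD had an unadjusted p below 0.05, as did 8.3% and 12.2% of all genes. At call shares of 0.0403% and 0.0224% over all genes, a count of 0 among 24 is not particular to the neighbours. They include Npm1, which encodes nucleophosmin, an abundant nucleolar chaperone, at 0.03 ± 0.0481 units on CD and -0.01 ± 0.0410 on HFD (SE), an uncertain value since 0 of the 10 placed probesets nearest to its own in number belong to chromosome 11. They also include the alpha-globin genes of red blood cells: Hba-a1 differed by -0.16 ± 0.157 units on CD and 0.06 ± 0.224 on HFD, with standard errors larger than for most neighbours. The signalling adaptor Lcp2 and the guanine nucleotide exchange factor Dock2, both genes of blood cells, differed by -0.04 and -0.03 units on CD and by -0.05 and 0.08 on HFD. Nprl3, a subunit of the complex that restrains mTORC1 when amino acids are scarce, had the smallest adjusted p of the neighbours on CD, at 0.275, with a difference of -0.13 ± 0.0343 units.

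A fit of both diets together called 38 genes, or 0.17%, 20 higher and 18 lower in high strains. Strain was a random block because each strain gave 2 arrays, but this may not have removed all of their likeness. For Uggt1 the SE was 0.0851 units on CD and 0.0867 on HFD, but 0.0619 in this fit. Its SD between high strains was 0.26 units in each diet, against 0.18 for HFD minus CD. For Arl4a these SDs were 0.14, 0.13 and 0.17, so the likeness varied by gene. Where it was strong, adjusted p-values of this fit can be too small, and calls made in it alone are tentative. Among the 38 genes, 8 had also been called in the CD or the HFD fit, including the 4 called in both. All 38 had the same sign in each diet, which their choice by a fit over both diets nearly fixes. Chromosome 11 held 10 of them, of 1625 measured genes there, or 0.615%, with Mtif2 not counted because its representing probeset was not called. Its new entries were Sfi1, a centrosomal protein, at -0.59 ± 0.0893 units (SE, limma, adjusted p = 2.17e-05), Snrnp25, a protein of the minor spliceosome, at -0.19 ± 0.0360 (adjusted p = 0.00266), and Smek2, a regulatory subunit of protein phosphatase 4, at 0.16 ± 0.0348 (adjusted p = 0.0202). Snrnp25 and Smek2 lie 13 and 39 places before Fbxw11 and Sfi1 lies 201 places before it, next to Pisd-ps1.

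Chromosome 1 held 11 called genes of this fit, of 1208 measured, or 0.911%. These genes, named here because they were called, differed in both directions. In gene order, counted over the 1203 measured genes placed on the chromosome, Uggt1 and Actr1b lay at 127 and 139, Asb18, Snrpe and Ddx59 at 507, 714 and 766, and Rabgap1l, Klhl20, Prdx6, Sft2d2 and Pcp4l1 at 873, 881, 883, 920 and 971, with Srp9 at 1112. Uggt1, a folding sensor for glycoproteins in the endoplasmic reticulum, was 0.31 ± 0.0619 units higher in high strains (SE, limma, adjusted p = 0.00479), and Srp9, a subunit of the signal recognition particle, 0.30 ± 0.0631 units higher (adjusted p = 0.00898). Prdx6, an antioxidant peroxiredoxin, differed by -0.22 ± 0.0460 units (adjusted p = 0.0110) and Pcp4l1, a relative of the calmodulin regulator Pcp4, by -0.88 ± 0.194 (adjusted p = 0.0176). The others were Actr1b, Snrpe, Ddx59 and Rabgap1l, higher in high strains, and Asb18, Klhl20 and Sft2d2, lower. The probeset of Srp9 is uncertain, since 0 of its 10 nearest-numbered placed probesets belong to chromosome 1. Chromosome 4 held 5 called genes, or 0.402%, all between places 1053 and 1107 of 1240. The probesets of Gm13051, Gm13251 and 1700029I01Rik are uncertain too, with 0, 3 and 5 of their 10 nearest-numbered placed probesets on chromosome 4. Chromosome X held 3, or 0.34%, among them Opn1mw, the middle wavelength opsin, at -1.13 ± 0.200 units (adjusted p = 0.000609). Opn1mw had differences of -1.12 units on CD and -1.13 on HFD and was called in neither alone (adjusted p = 0.112 and 0.25). Its SD between high strains was 0.89 units on CD and 1.08 on HFD, but 0.48 for HFD minus CD. In low strains these were 0.54, 0.56 and 0.52. The 2 arrays of a high strain thus carried much the same information, and the SE of the fit of both diets can be too small.

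The partners of Fbxw11 in its ligase showed no called gene. Of 24 measured genes of the SCF core and its regulators, 0 were called on CD, on HFD or in the fit of both diets by limma, and 0 on CD and 3 on HFD had an unadjusted p below 0.05. Over all genes 0.0403%, 0.0224% and 0.17% were called in these fits, so a list of this size would usually hold none, and the same applies to the lists that follow. Their median difference was -0.01 units on CD and 0.06 on HFD, and no member exceeded 0.12 units in either direction. The adaptor Skp1a differed by 0.02 ± 0.0491 units on CD and 0.07 ± 0.0447 on HFD (SE), and the cullin Cul1 by 0.00 ± 0.0376 and 0.06 ± 0.0430. The RING protein Rbx1 differed by -0.01 ± 0.0342 and 0.10 ± 0.0451 units, likewise uncertain, with 0 of 10 such probesets on its chromosome, 15. The same held for the list members Gps1, Ube2d2 and Ube2d3 and for the substrate Dlg1, each with 0 of 10. Cand1 and Cand2, which exchange the substrate receptors of cullin ligases, differed by -0.06 and -0.09 units on CD and by 0.10 and -0.06 on HFD.

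Btrc, the paralogue closest to Fbxw11, had the lowest difference of the 9 measured F-box genes with WD repeats in both diets. High strains averaged 10.31 units on CD and low strains 10.41, a difference of -0.10 ± 0.0362 (SE, limma, adjusted p = 0.462), and on HFD the difference was -0.07 ± 0.0395 (adjusted p = 0.448). Neither passed the test. Fbxw7, whose ligase targets cyclin E and Myc, differed by 0.04 and 0.05 units. The list had a median of 0.03 units in each diet and 0 called genes.

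Transcripts of the ligase's substrates were likewise not called. Of 30 measured, 0 were called in any of the 3 fits, with unadjusted p below 0.05 in 3 on CD and 5 on HFD, beside 8.3% and 12.2% of all genes, and medians of 0.02 and 0.03 units. The ligase acts on proteins, which were not measured. Ctnnb1, the transcript of beta-catenin, differed by -0.02 ± 0.0262 units on CD and 0.03 ± 0.0330 on HFD (SE), and Nfkbia, the transcript of IkappaB-alpha, by 0.06 ± 0.0492 and 0.12 ± 0.0642. Lpin1, a phosphatidate phosphatase and coregulator of fat oxidation, had the highest difference of the list in both diets, at 0.25 ± 0.0684 units on CD (adjusted p = 0.295) and 0.22 ± 0.0939 on HFD (adjusted p = 0.386). Per2 differed by 0.12 ± 0.0650 units on CD and -0.20 ± 0.0580 on HFD (adjusted p = 0.664 and 0.304).

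The downstream lists also held no called gene, as the shares called over all genes, 0.0403% on CD and 0.0224% on HFD, would give for lists of this size. Of 18 Wnt and beta-catenin target genes 0 were called, with 15 of 18 differences above 0 on CD and 15 of 18 below 0 on HFD, and medians of 0.03 and -0.08 units. Axin2, the feedback scaffold of the pathway, had the lowest on HFD, at -0.17 units. Of 22 NF-kappaB target genes 0 were called, with medians of 0.00 and -0.03 units, and of 23 clock genes 0, with medians of 0.00 and -0.03. Differences of the NF-kappaB targets were below 0 for 10 of 22 on CD and 19 of 22 on HFD. Over all genes the median difference was 0.01 units on CD and -0.01 on HFD. What made these lists lean was not tested. Of the clock genes 4 on CD and 7 on HFD had an unadjusted p below 0.05, beside 8.3% and 12.2% of all genes. Among clock genes Dbp differed by -0.27 units on CD and -0.37 on HFD and Nfil3, its counterpart as a repressor of the same promoter elements, by 0.26 and 0.34, none of them past the test, whose smallest adjusted p in the list was 0.497 on CD and 0.25 on HFD.

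**Figure D5:**
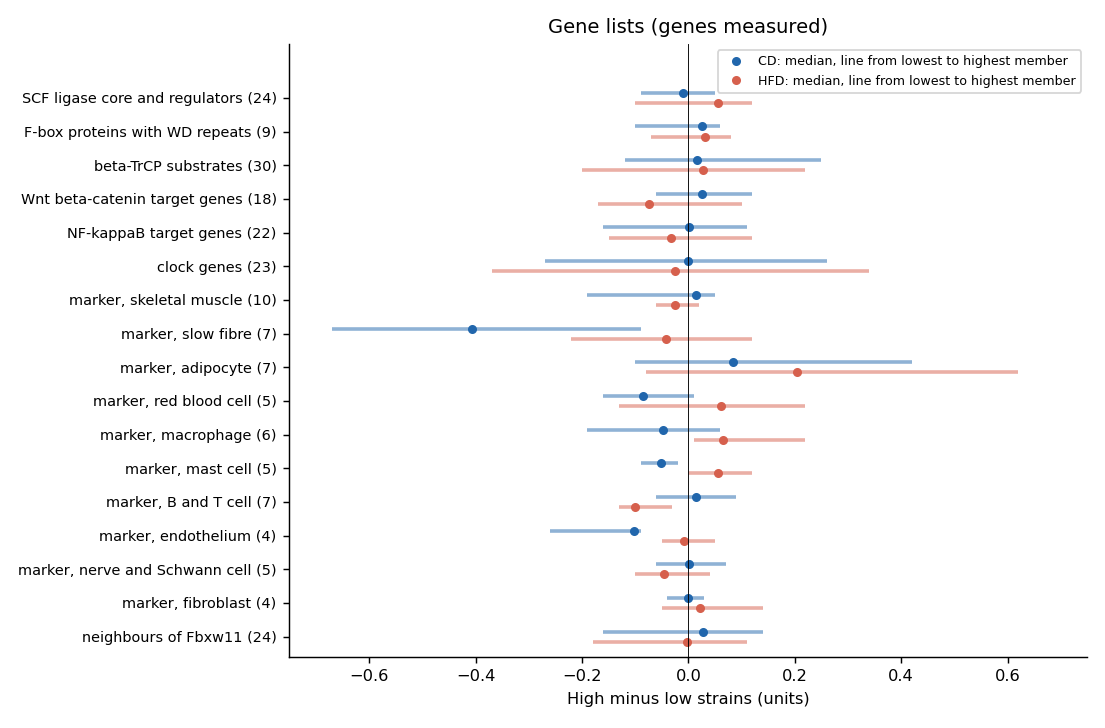
High minus low Fbxw11 strains (x axis, units) for 17 gene lists (y axis, number measured in brackets), with a dot at the median and a line from the lowest to the highest member on CD (blue) and HFD (red). The pathway lists centre between -0.08 and 0.06 units, and the slow fibre markers on CD, at -0.41, lie farthest from 0.

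No cell type marker was called between the classes, though several lists leaned one way in a diet. The 10 markers of skeletal muscle had mean scores of 14.20 to 14.53 units in every strain on CD and 14.25 to 14.57 on HFD, and 0 were called, with 6 of 10 differences above 0 on CD and 9 of 10 below 0 on HFD. All 7 markers of slow fibres had differences below 0 on CD, from -0.67 to -0.09 units with a median of -0.41, and 0 were called (smallest adjusted p = 0.582). Myl3, a slow myosin light chain, ran from 7.99 through 9.54 to 11.41 units in high strains and from 8.60 through 10.02 to 11.34 in low strains. Myh7, the slow myosin heavy chain, ran from 8.01 through 8.93 to 10.91 and from 8.27 through 9.74 to 10.79. Fewer slow fibres and less RNA per fibre cannot be told apart in pooled muscle. The ranges overlapped almost entirely, and the median difference of the list was -0.62 units in batch 1 and -0.24 in batch 2. On HFD the median was -0.04 units, with 6 of 7 below 0. The part of slow fibre content in the CD result was not tested. The 7 adipocyte markers had medians of 0.08 units on CD and 0.20 on HFD with 0 called, and 6 of 7 were above 0 on HFD, Lep, the gene of leptin, the most at 0.62 units. In level, their mean score per strain ran from 9.27 to 10.71 in high and from 9.31 to 10.96 in low strains on CD. On HFD that mean score ran from 9.74 to 11.43 and from 9.43 to 11.01. Markers of red blood cells, macrophages, mast cells, B and T cells, endothelium, nerve and fibroblasts had 0 called genes and medians from -0.10 to 0.07 units in either diet. On CD all 4 endothelial and all 5 mast cell markers were below 0, and on HFD all 7 markers of B and T cells were below 0 and all 6 of macrophages above. Their part in the results was not tested.

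Whether a diet difference depended on the Fbxw11 class was tested with 1 HFD minus CD difference per strain. No gene was called by limma, 0% of 22318, with a smallest adjusted p of 0.0668, while 4209 genes had an unadjusted p below 0.05. The Student's t-test that the methods name also gave 0 after adjustment. Among the genes called for class, Gpr75 had a class difference in its diet response of -0.07 ± 0.0864 units (SE, adjusted p = 0.681) and Acyp2 of -0.01 ± 0.0551 (adjusted p = 0.963). Ccdc85a had one of 0.29 ± 0.0780 units (adjusted p = 0.112): it was higher on HFD in 19 of 22 high strains, by 0.20 ± 0.22 units on average (SD), and in 6 of 15 low strains, by -0.06 ± 0.25. Rex2 had 0.37 ± 0.0906 units (adjusted p = 0.103). It was higher on HFD in 17 of 22 high strains, with a mean change of 0.05 ± 0.25 units (SD), and in 2 of 15 low strains, with a mean change of -0.32 ± 0.29. The calls of Rex2, Pnpt1, Fancl, Pisd-ps1 and Slc47a1 on CD alone are therefore not shown to differ from HFD.

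The count of 0 did not hold under every setting. With each array centred on its median 20 genes were called, while after a second quantile normalization 0 were. Without probesets below the median brightness, which left 12554 genes to test, 22 were called, and 12 of them were among the 20. Those shared, named here for that reason, include Cnot6, a deadenylase of mRNA, and Mrpl45, a protein of the mitochondrial ribosome. Mrpl45 was higher on HFD in 22 of 22 high strains, by 0.27 ± 0.16 units (SD), and in 9 of 15 low strains, by 0.01 ± 0.17, a class difference of 0.26 ± 0.0558 (SE, limma, adjusted p = 0.0668 with all probesets as deposited, 0.0416 with centred arrays and 0.0387 without dim probesets). Per2, a clock gene and substrate of the ligase, was among those called without dim probesets: its class difference was -0.32 ± 0.0643 units (adjusted p = 0.0668 with all probesets as deposited and 0.0387 without the dim ones), from -0.18 ± 0.19 in high strains and 0.12 ± 0.17 in low strains (SD).

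The split by Fbxw11 crossed another large division of this panel, that of H2-Ea-ps, a pseudogene of the major histocompatibility complex whose signal is high in some strains and low in others. Of the 22 high Fbxw11 strains 8 had high and 14 low H2-Ea-ps, and of the 15 low strains 6 and 9. With that class as a further term 9 genes were called on CD and 7 on HFD, including all 9 and all 5 of the genes above.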

How the data were processed

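RNA of about 5 animals per strain and diet was pooled by the authors and hybridised to Affymetrix Mouse Gene 1.0 ST arrays (Affymetrix Expression Console, per the labels). The deposited values are a score per probeset with mean 8.0 and SD 2.0 on every array; summarization, background correction, log base, genome build and any batch correction are not given in the sources used here, and depth has no meaning for arrays, whose number limits the precision. The tests had been planned for log values and were run on the scores. Of 79 arrays, 42 were CD and 37 HFD. Linear models were fitted with limma 3.58.1 (R 4.3.3) to 35553 probesets, without the 3 of Fbxw11, with class and array batch as terms; p-values were adjusted by Benjamini-Hochberg. The diet result was fitted to 1 HFD minus CD difference per strain, with the batches of the pair as a term (both 1, both 2, or different). The last level held 4 high and 4 low strains and merged both orders of the batches. A batch shift in those strains was therefore not removed. The code was tested on simulated data. Symbols were matched to RefSeq (GRCm38.p6): 18780 as current symbols, 2385 as synonyms and 1154 not at all; array symbols can be old. Gene order comes from that table. Named genes were those called in both diets (at most 10 in each direction), the 12 measured neighbours on either side of Fbxw11, called members of the gene lists and the members of the ligase lists; others named were chosen after their values were seen. The split, the members and the gene lists were chosen with earlier results of these data known. Alternatives covered batch, strains left out, scaling, dim probesets, test and covariates.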

Additional observations from a re-analysis of the deposited data

How the results depend on the processing

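The Gpr75 difference was called in each of 16 settings on CD, from -1.69 to -1.58 units, and in each of 15 on HFD, from -1.77 to -1.65. Here and below, the settings of each diet include the fit of both diets, which is thus counted for CD and again for HFD. No difference reversed among the 10 genes called on CD or HFD or in probeset 10374880 of Mtif2, while the fit of both diets was run in 1 setting only. Probeset 10338934, which represented Mtif2, stood on CD at -0.05 units in batch 1 alone and 0.02 in batch 2 alone. Ccdc85a was called in 15 of 16 settings on CD and 15 of 15 on HFD, Erlec1 in 15 of 16 and 14 of 15, and Acyp2 in 15 of 16 and 13 of 15. Over the genes named as called, 283 alternative values kept their side of the threshold, 31 lost the call and 5 gained it. The gains of Arl4a on CD and of Fancl and Pisd-ps1 on HFD came from the fit of both diets, as did a gain of Pnpt1 on HFD. These are not gains within a diet. With batch 1 alone 1 gene was called on CD, 2 on HFD and 1 in both diets. With batch 2 alone 7 were called on CD, 5 of them also called in the main fit, 3 on HFD and 3 in both diets. Without both parental strains 6 were called on CD and 7 on HFD, 3 higher and 4 lower, with 4 of the 5 HFD calls kept. The CD count was 13 without dim probesets, 4 higher and 9 lower, and 11 with arrays centred on their median, 4 and 7. The HFD count was 8 after a second quantile normalization and 9 without dim probesets, and the cause was not tested. The diet count of 0 stayed 0 after a second quantile normalization and became 20 with arrays centred on their median and 22 without dim probesets (12554 genes tested in place of 22318), and the cause of the first was not tested. The count of genes called in both diets was 4. The fit of both diets with strain as a random block called 38, but its SE can be too small for some genes. With the first principal component as a term, genes with an unadjusted p below 0.05 numbered 846 on HFD in place of 2713 and 1704 for the diet result in place of 4209. No paired analysis was possible because the class is a property of the strain, so strains cannot be paired across classes. The log base, the probe positions and the variation within a strain are unknown, and no genotype was used.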
